A study of Mus musculus with 12 samples.

Results

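The 43 genes examined here encode complement and coagulation factors that are made mainly in the liver. They were chosen by gene symbol from the 16821 genes listed for each liver, 21 as complement factors and 22 as coagulation factors, and all 43 were found. Liver RNA came from 12 adult male C57BL/6J mice, 6 of them sedentary controls (Con) and 6 trained by chronic exercise (Exe). Training of the Exe group was moderate-intensity treadmill running over 6 weeks, and the Con group was kept in that room without running. Saline-perfused livers were taken from both groups within a day of the last run, and the authors screened samples for outliers by principal component analysis, the number removed not being given in the sources used here. Each mouse gave its own library, and mice are named by group and number, such as Con 1 or Exe 6. Values are FPKM, fragments scaled to transcript length and library size, so levels of different genes can be compared per length.

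Complement is a cascade of plasma proteins that marks microbes and damaged cells. It starts through the classical and lectin pathways (C1r, C1s, mannose-binding lectins, C4, C2) or the alternative pathway (factors B and D, properdin), converges on C3, and ends in the membrane attack complex of C5 to C9. Coagulation is a cascade in which vitamin K-dependent proteases and their cofactors produce thrombin, which turns fibrinogen into fibrin, while antithrombin, protein C and plasmin limit the clot. Hepatocytes secrete most of these proteins, and several of them, fibrinogen and C3 among them, are known as acute-phase proteins whose synthesis rises when interleukin-6 reaches the liver.

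Summed over all genes, the deposited FPKM lay between 735200 and 820107 in the 12 mice. The relative depth, estimated from genes so low that their FPKM stepped in whole multiples, lay between 0.96 and 1.02, while the depth in reads is unknown. All 8 hepatocyte marker genes had a mean of at least 1 FPKM, with sums from 63703 to 83331 FPKM in Con mice and from 74903 to 92983 FPKM in Exe mice. None of the 66 pairs of libraries held identical values.

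The 3 fibrinogen chains were the most abundant of the factors. The β chain gene Fgb (NCBI gene ID 110135) was the most abundant, ranging from 2833 to 4735 FPKM with a median of 3571 in Con mice, and from 2575 to 5912 FPKM with a median of 3182 in Exe mice. The γ chain gene Fgg (99571) ranged from 2209 to 3554 FPKM (median 2587) in Con mice and from 2082 to 4571 FPKM (median 2438) in Exe mice. For the α chain gene Fga (14161), the range was 1916 to 2958 FPKM (median 2347) in Con mice and 1439 to 3881 FPKM (median 1949) in Exe mice. All 3 chains were lowest in Exe 6 and highest in Exe 5, so the widest spread lay within the Exe group, and the groups overlapped. Together the 3 chains made up between 41.6% (Exe 6) and 60.4% (Exe 5) of the summed FPKM of the 22 coagulation factors.

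Of the other coagulation factors, Vtn, which encodes vitronectin, an adhesion protein of plasma, had 2066 ± 171.9 FPKM in Con and 1925 ± 132.04 FPKM in Exe mice (SD, n = 6 in each group). Serpinc1, the gene of antithrombin, was at 1465 ± 50.96 FPKM and 1494 ± 83.4 FPKM, and it varied little, with a highest mouse only 1.16 times the lowest. Its partner F2, the gene of prothrombin, was at 888 ± 50.5 FPKM and 915 ± 35.5 FPKM. The kininogen gene Kng1 and the plasminogen gene Plg had means over the 12 mice of 1396 and 1135 FPKM. Lower in the order stood Serpinf2 (α2-antiplasmin), Cpb2 (the fibrinolysis inhibitor TAFI), Proc (protein C), Serpind1 (heparin cofactor II), F12 and F10, whose group means lay between 191.03 and 452 FPKM. The factor genes F5, F7, F9, F11, F13b and Klkb1 (plasma prekallikrein) had group means between 42.5 and 79.6 FPKM, and Pros1 (protein S) had group means of 21.9 and 21.2 FPKM. F8, the gene of factor VIII, was lowest, with 1.16 ± 0.187 FPKM in the Con and 1.26 ± 0.087 FPKM in the Exe group.

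Among the complement factors C3 led, with 1857 to 2549 FPKM (median 2129) in Con mice and 1624 to 2728 FPKM (median 2131) in Exe mice. Cfb, the gene of factor B, the protease of the alternative pathway, followed with 468 to 587 FPKM (median 545) in Con mice and 486 to 711 FPKM (median 571) in Exe mice. Serping1, which encodes the C1 inhibitor, ranged from 463 to 660 FPKM (median 559.95) in Con mice and from 436 to 590.03 FPKM (median 532) in Exe mice. The groups overlapped for all 3 genes. C4b (complement C4) and the inhibitor genes C4bp and Cfi had group means between 303 and 390.6 FPKM. In an overlapping range, the terminal pathway genes Hc (complement C5), C6, C8a, C8b, C8g and C9 had group means between 134 and 365 FPKM. The proteases C1ra, C1s1 and Masp2 and the lectins Mbl1 and Mbl2 lay between 174 and 302 FPKM, whereas C2 and Masp1 were at or below 69.95 FPKM. Cfp (properdin) had group means of 22.0 and 18.4 FPKM, and Cfd (factor D) did not exceed 0.35 FPKM in any mouse. Neighbours in this order of levels often overlapped in their ranges over the mice. Near-identical gene copies exist for C4b, C1ra, C1s1 and Kng1, and how reads were divided between copies is not given in the sources used here.

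**Figure D1:**
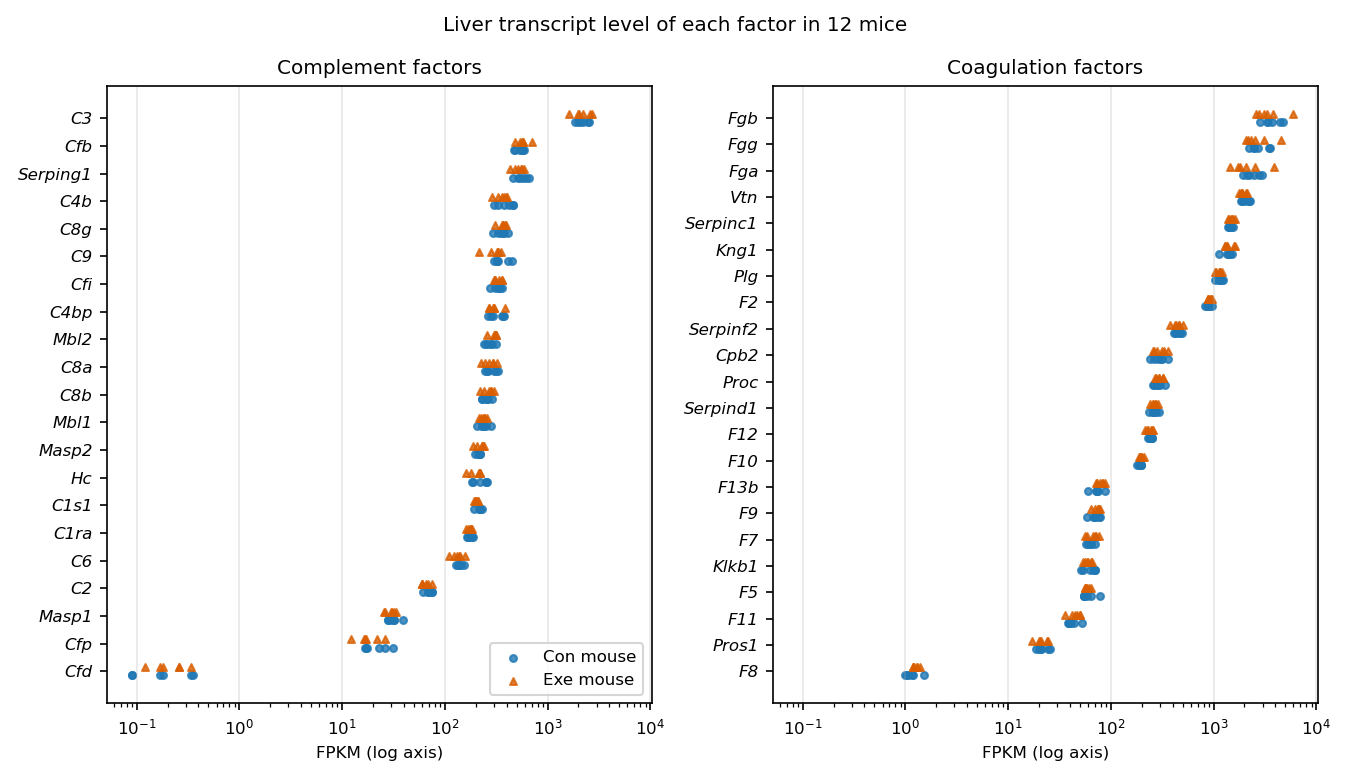
FPKM of each factor on a log axis, complement on the left and coagulation on the right, with 1 circle for each Con mouse and 1 triangle for each Exe mouse and genes ordered by their mean over the 12 mice. Fibrinogen chains and C3 stand at the top, Cfd and F8 at the bottom, and the Con and Exe points overlap for all 43 genes.

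Comparing Exe with Con mice asks whether 6 weeks of running changed the transcript level of these factors. None of the 42 factors tested differed between the groups at an adjusted p of 0.05, against 0% of all 10241 genes tested (limma on log2(FPKM + 1), Benjamini-Hochberg adjustment over all genes). At an unadjusted p of 0.05, 0 of the 42 factors passed, where 6.21% of all genes did. In Exe mice 19 of the factors had a higher and 23 a lower mean log2 value, with a median log2 fold change of -0.02 beside 0.02 over all genes tested. Over all genes tested, 5892 were higher and 4349 lower. Under quantile normalization between mice 15 factors were higher and 27 lower. The median log2 fold change over all genes tested was then 0.0058, and how many of them were higher is not given here. The remaining factor, Cfd, fell below the filter of at least 1 FPKM in at least 6 mice. The ranges of Con and Exe mice overlapped for all 43 genes, where they did not overlap for 0.254% of all genes tested.

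By pathway, 7 of the 20 complement factors tested had a higher mean in Exe mice (median log2 fold change -0.06) and 12 of the 22 coagulation factors (median 0.02). Of all 10241 genes tested, 5892 did (median 0.02). The procoagulant vitamin K-dependent protease genes F2, F7, F9 and F10 had log2 fold changes between 0.04 and 0.08. Of the 6 terminal complement genes, 4 had values below 0, from -0.23 for C9 to -0.05 for C8a. The 3 tested complement inhibitors, Serping1, C4bp (C4b-binding protein) and Cfi (factor I), had log2 fold changes of -0.10, -0.10 and 0.0069.

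The 5 largest absolute log2 fold changes were those of Cfp, C9, Fga, Hc and Mbl2. Cfp, whose product properdin stabilises the alternative pathway convertase, ranged from 16.9 to 31.5 FPKM (median 20.05) in Con mice and from 12.3 to 26.4 FPKM (median 16.8) in Exe mice. Its log2 fold change was -0.24 (standard error 0.18, adjusted p = 0.914 from limma), and -0.14 without Con 2 or without Exe 2. C9, which forms the pore of the membrane attack complex, ranged from 302 to 453 FPKM (median 328) in Con mice and from 213 to 353 FPKM (median 328) in Exe mice. Con 1 and Con 2 were high and Exe 2 and Exe 4 low in C9, while its medians were alike, and the log2 fold change was -0.23 (standard error 0.13, adjusted p = 0.851 from limma), or -0.13 without Exe 2.

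For Fga the log2 fold change was -0.17 (standard error 0.20, adjusted p = 0.944 from limma), with 4 of 6 Exe mice below the Con median. It ran from -0.34 without Exe 5 to -0.054 without Exe 6, and was -0.029 under quantile normalization. Hc, the start of the terminal pathway, ranged from 184 to 258 FPKM (median 237) in Con mice and from 161 to 221 FPKM (median 215) in Exe mice. All 6 Exe mice lay below the Con median of Hc, but Con 4 and Con 5 were below the Exe median too, and the log2 fold change was -0.16 (standard error 0.11, adjusted p = 0.899 from limma), or -0.099 without Exe 2. Mbl2, a mannose-binding lectin, ranged from 241 to 313 FPKM (median 273) in Con mice and from 259 to 315 FPKM (median 309.8) in Exe mice. Its log2 fold change was 0.14 (standard error 0.072, adjusted p = 0.816 from limma), the lowest adjusted p of the 42 factors, and 5 of 6 Exe mice were above the Con median.

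Among the most abundant factors, C3 had a log2 fold change of 0.0037 with a 95% interval from -0.27 to 0.27. For Cfb it was 0.11 (interval -0.08 to 0.30) and for Serping1 -0.10 (interval -0.30 to 0.11). With 1 mouse left out, Cfb ran from 0.046 without Exe 5 to 0.16 without Exe 4, and Serping1 from -0.15 without Con 4 to -0.047 without Exe 4. The interval of Fgb ran from -0.51 to 0.29 around -0.11, and that of Fgg from -0.44 to 0.36 around -0.04. Under quantile normalization the sign of both fibrinogen genes turned, to 0.033 and 0.16, while C3 was at 0.14, Cfb at 0.043 and Serping1 at -0.16. The narrowest interval was that of F10, from -0.05 to 0.15, and those of F2 and Serpinc1 stayed within -0.10 and 0.16.

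**Figure D2:**
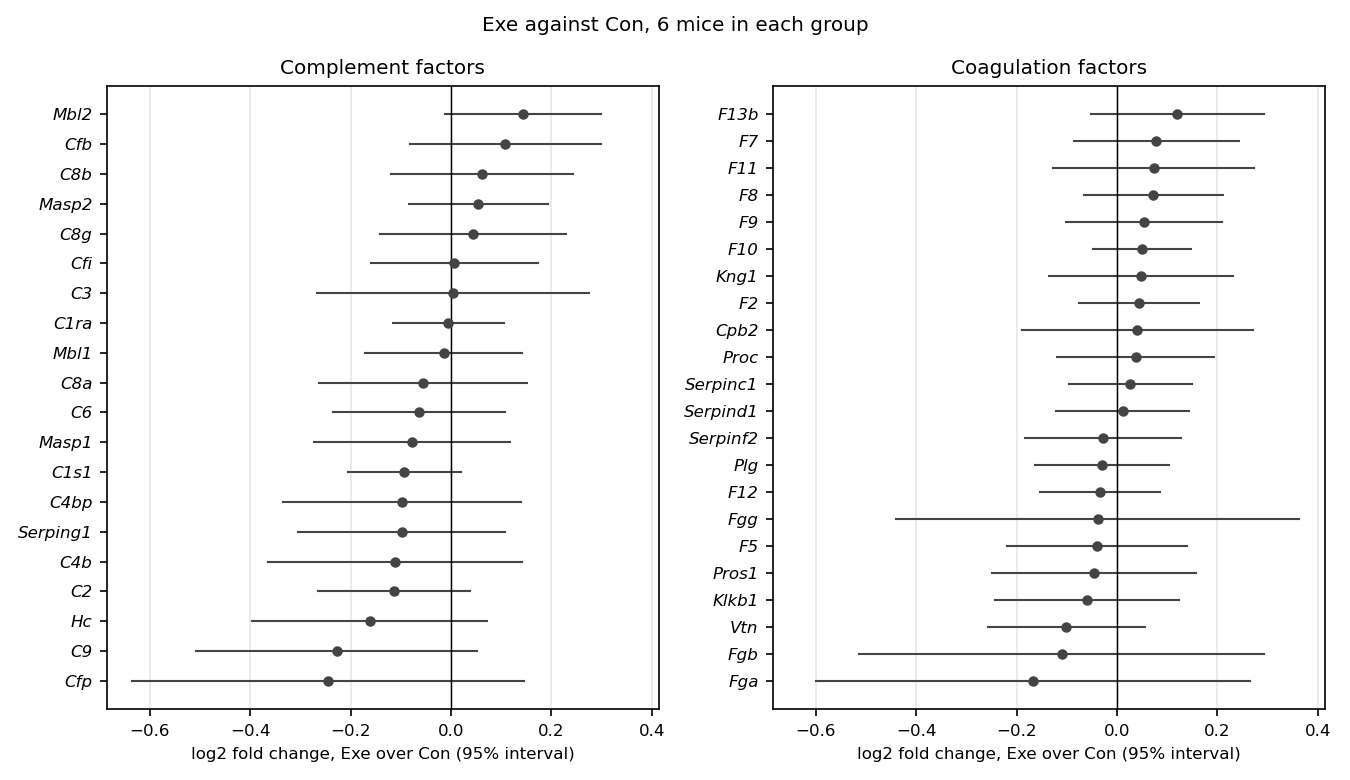
Log2 fold change of Exe over Con mice on the log2(FPKM + 1) scale for the 42 factors tested, points being estimates and lines 95% intervals from limma with 6 mice in each group. All 42 intervals include 0, and the widest are those of Fga, Fgb, Fgg and Cfp.

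Within each group, however, the mice differed in acute-phase state. An acute-phase index was formed as the mean log2(FPKM + 1) of 10 acute-phase genes of mouse liver, none of them among the 43 factors: Saa1, Saa2, Saa3, Orm1, Orm2, Hp, Lcn2, Apcs, Serpina3n and Steap4. Serum amyloid Saa2 ranged over the mice from 51.7 FPKM (Con 5) to 11371 FPKM (Con 1) and Saa1 from 148.5 FPKM (Exe 2) to 9260 FPKM (Con 1). The others ran from 8.76 to 152 FPKM (Saa3), 1250 to 3938 FPKM (Orm1), 38.6 to 1440.04 FPKM (Orm2), 2002 to 7922 FPKM (Hp), 5.93 to 719 FPKM (Lcn2), 75.8 to 497 FPKM (Apcs), 146 to 507 FPKM (Serpina3n) and 22.5 to 93.9 FPKM (Steap4). The index was below 7 in 4 mice, Con 4 (6.54), Exe 4 (6.54), Con 5 (6.57) and Exe 2 (6.76). It lay between 7.67 and 9.27 in 6 mice, and above 10 in Con 1 (10.1) and Exe 5 (10.1). Of the 6 mice between, Con 2, Con 3 and Con 6 (8.98 to 9.27) stood above Exe 1, Exe 3 and Exe 6 (7.67 to 8.34). The index was 8.43 ± 1.51 in Con mice and 7.89 ± 1.29 in Exe mice (SD, n = 6), a difference of -0.54 with p = 0.519 in the exact two-sided permutation test over all divisions of the mice. Each group thus held mice at the bottom and at the top of the index.

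The slope of each gene on this index, with the group kept as a term, gives the log2 change per unit of the index among mice of the same group. Of the 42 factors, 29 had a slope above 0 and 13 below 0, with a median of 0.04, whereas the median over all genes tested was -0.01. Over all genes tested, 4200 slopes lay above 0 and 6031 below 0. At an unadjusted p of 0.05, 18 factors rose with the index, where 6.52% of the 10231 genes tested did, and 3 fell, where 9.98% did. At an adjusted p of 0.05 from limma, 3 of the 42 factors passed, all rising, where 0.498% of all genes passed and 0.401% rose. The 3 were Cpb2, C4b and C4bp. The index and the factors were read from the same libraries. The hepatocyte marker sum was lowest in Con 1 and highest in Exe 2, and its part in the slopes was not tested. Alb was the largest part of this sum, at 29517 FPKM in Con 1 and 48015 FPKM in Exe 2. Tat (944 and 412 FPKM) and Pck1 (1326 and 714 FPKM) were higher in Con 1, and the other hepatocyte markers were lower.

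Cpb2 encodes TAFI, a plasma carboxypeptidase that slows the breakdown of fibrin. It was at 239 FPKM in Con 4, 256 FPKM in Exe 4, 262 FPKM in Con 5 and 266 FPKM in Exe 2, the 4 mice with the lowest index. In Con 1 and Exe 5, with the highest index, it was at 359.8 and 361 FPKM, and the other 6 mice lay between 280.2 and 332 FPKM. The low, middle and high mice on the index thus did not overlap in Cpb2, and Con and Exe mice were mixed at both ends. By group, Cpb2 ranged from 239 to 359.8 FPKM (median 296) in Con mice and from 256 to 361 FPKM (median 298) in Exe mice. Its slope was 0.13 (standard error 0.020, adjusted p = 0.0145 from limma), which over the whole range of the index of 3.59 amounts to 1.40-fold (95% interval 1.26 to 1.55).

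C4bp, whose product is the main fluid-phase inhibitor of the C4b convertase, was between 266 and 282 FPKM in the 4 mice with the lowest index. The middle 6 mice lay between 292 and 372 FPKM, and Con 1 and Exe 5 stood highest at 380.5 and 384 FPKM. The median of C4bp was 326 FPKM in Con and 297 FPKM in Exe mice. Its slope was 0.13 (standard error 0.022, adjusted p = 0.0283 from limma). C4b, the substrate that C4bp holds in check, ranged from 302 to 466 FPKM (median 396) in Con mice and from 291.03 to 406 FPKM (median 368) in Exe mice, with a slope of 0.15 (standard error 0.023, adjusted p = 0.0238 from limma). Exe 5 held 406 FPKM of C4b, less than Con 2 and Con 3, although its index was the highest. The ratio of C4b to C4bp stayed between 1.06 and 1.32 in the 12 mice.

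These 3 calls depended on single mice, while the slopes moved little. Without Con 1 no factor reached an adjusted p of 0.05 from limma, beside 18 at an unadjusted p of 0.05, and the adjusted p was 0.0828 for Cpb2, 0.109 for C4b and 0.117 for C4bp. Without Exe 5 the calls of Cpb2 (adjusted p = 0.0557 from limma) and C4bp (0.122) were lost. Without Con 4, Con 5 or Exe 2, in turn, those of C4b and C4bp were lost, at adjusted p of 0.0540 and 0.0544, 0.0684 for both, and 0.0549 and 0.0614 from limma. Over all 12 fits that left out 1 mouse, the slope stayed between 0.13 and 0.15 for Cpb2, 0.13 and 0.17 for C4b, and 0.13 and 0.14 for C4bp. Without both Con 1 and Exe 5, 0 factors passed an adjusted p of 0.05 from limma and 9 an unadjusted p of 0.05, and the slopes were 0.13 for Cpb2, 0.18 for C4b and 0.12 for C4bp. The shares of all genes passing in the fits with mice left out are not given here, so these counts cannot be set beside them. Over all alternatives run, the adjusted p from limma ranged from 0.00583 to 0.321 for Cpb2, 0.01197 to 0.189 for C4b and 0.00549 to 0.469 for C4bp.

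The steepest slopes belonged to the 3 fibrinogen chains, but their mice scattered more. Fgb had a slope of 0.21 (standard error 0.047, adjusted p = 0.0663 from limma), Fga 0.20 (standard error 0.056, adjusted p = 0.102) and Fgg 0.20 (standard error 0.047, adjusted p = 0.0707). Over the range of the index, this corresponds to 1.67-fold for Fgb (95% interval 1.30 to 2.15). Without Exe 5, which held 5912 FPKM of Fgb, the slopes were 0.14, 0.12 and 0.14. Under quantile normalization they were 0.097 for Fgb, 0.14 for Fga and 0.11 for Fgg, no longer the steepest, and Fga did not pass an unadjusted p of 0.05. Exe 6, whose index of 7.93 lay in the middle, had the lowest level of all 3 chains, below the 4 mice with the lowest index.

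The mouse fibrinogen genes lie together on chromosome 3, and their promoters are shown because the 3 chains rose and fell together over the mice. In the RefSeq annotation of GRCm38.p6, which is an older build than the GRCm39 of the authors' alignment, the start of Fga is 18429 bases from that of Fgg and 23710 bases from that of Fgb. The sequences are the 250 bases before each start, 5′ to 3′ on the gene's strand, from RefSeq (GRCm38.p6). Capitals mark 2 motifs searched on both strands: TTGCNNAA, a form of the C/EBP site, and CTGGGAA, the interleukin-6 response element known from acute-phase genes. A site of the hepatocyte factor HNF1 was also searched, and the motifs do not overlap in these windows.
Fgb promoter, chr3:83049864-83050113, - strand: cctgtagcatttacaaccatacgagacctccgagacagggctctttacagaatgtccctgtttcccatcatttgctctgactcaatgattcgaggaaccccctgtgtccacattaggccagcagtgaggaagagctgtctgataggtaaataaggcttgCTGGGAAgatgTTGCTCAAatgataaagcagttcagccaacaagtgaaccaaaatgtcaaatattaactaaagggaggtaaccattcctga
Fga promoter, chr3:83025903-83026152, + strand: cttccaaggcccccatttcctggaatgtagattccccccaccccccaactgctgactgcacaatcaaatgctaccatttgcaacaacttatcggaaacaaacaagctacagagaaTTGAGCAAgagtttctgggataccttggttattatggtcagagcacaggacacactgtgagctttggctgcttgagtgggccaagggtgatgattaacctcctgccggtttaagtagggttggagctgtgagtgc
Fgg promoter, chr3:83007474-83007723, + strand: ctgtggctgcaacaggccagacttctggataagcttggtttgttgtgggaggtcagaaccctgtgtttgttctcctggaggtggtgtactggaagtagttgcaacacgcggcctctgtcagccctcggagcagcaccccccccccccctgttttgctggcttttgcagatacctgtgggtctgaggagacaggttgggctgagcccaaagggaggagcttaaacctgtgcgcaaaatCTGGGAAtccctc
In Fgb, CTGGGAA stands at positions -91 to -85 and TTGCTCAA at -80 to -73, counted from the start. Fga held the C/EBP form at -135 to -128 and Fgg held CTGGGAA at -13 to -7. Promoters were found for 34 of the 43 factors, of which 33 had passed the filter. Of these 33, 8 (24.2%) held TTGCNNAA within 250 bases, 5 (15.2%) held CTGGGAA and 1, Hc, held the HNF1 motif. Of the 8284 tested genes with a promoter, 9.68%, 11.1% and 0.0966% did. A match describes letters in this window and is no measurement of binding.

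C3, Cpb2, C4bp and Klkb1 are shown for comparison, the first as the most abundant complement factor, the next 2 as 2 of the 3 factors past the adjusted threshold on the index, and Klkb1 as a factor with a negative slope.
C3 promoter, chr17:57228137-57228386, - strand: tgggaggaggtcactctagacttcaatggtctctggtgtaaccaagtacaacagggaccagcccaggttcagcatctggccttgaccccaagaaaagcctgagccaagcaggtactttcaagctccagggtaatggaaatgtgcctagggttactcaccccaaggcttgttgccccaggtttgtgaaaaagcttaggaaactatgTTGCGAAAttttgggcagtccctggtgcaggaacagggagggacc
Cpb2 promoter, chr14:75242037-75242286, + strand: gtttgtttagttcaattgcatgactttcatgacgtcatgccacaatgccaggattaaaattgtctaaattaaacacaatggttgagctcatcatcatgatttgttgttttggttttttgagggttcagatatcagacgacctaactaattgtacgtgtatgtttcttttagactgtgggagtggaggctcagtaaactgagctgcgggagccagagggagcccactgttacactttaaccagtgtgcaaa
C4bp promoter, chr1:130661619-130661868, - strand: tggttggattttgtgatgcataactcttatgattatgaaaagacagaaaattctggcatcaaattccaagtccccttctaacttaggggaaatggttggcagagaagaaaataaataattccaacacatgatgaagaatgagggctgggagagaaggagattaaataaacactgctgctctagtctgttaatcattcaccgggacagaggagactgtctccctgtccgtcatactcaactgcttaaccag
Klkb1 promoter, chr8:45294836-45295085, - strand: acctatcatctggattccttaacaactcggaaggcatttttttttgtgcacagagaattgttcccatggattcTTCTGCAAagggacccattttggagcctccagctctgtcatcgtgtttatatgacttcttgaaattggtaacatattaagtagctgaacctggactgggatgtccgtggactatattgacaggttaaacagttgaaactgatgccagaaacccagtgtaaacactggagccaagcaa
C3 held TTGCGAAA at -45 to -38 and Klkb1 held TTCTGCAA, the C/EBP form on the other strand, at -177 to -170. Cpb2 and C4bp, which rose with the index, held none of the 3 motifs in this window.

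Among the complement factors, 10 of 20 rose with the index at an unadjusted p of 0.05 and 1 fell. Over all genes tested, 6.52% rose and 9.98% fell. C3 had a slope of 0.13 (standard error 0.034, adjusted p = 0.0933 from limma) and Serping1 of 0.11 (standard error 0.023, adjusted p = 0.0612). Under quantile normalization the slope of C3 was 0.052 (standard error 0.036, adjusted p = 0.518 from limma) and did not pass an unadjusted p of 0.05. Hc had a slope of 0.12 (standard error 0.026, adjusted p = 0.0573 from limma), and Cfp of 0.15 (standard error 0.060, adjusted p = 0.242). C8a, C9, Cfb and Cfi also passed the unadjusted threshold, with slopes between 0.06 and 0.11. Of the 8 genes of the classical and lectin pathways C4b alone passed the unadjusted threshold, where 16.5% of all genes did. The slopes of C1ra, C1s1, C2, Masp1, Masp2, Mbl1 and Mbl2 lay between -0.03 and 0.04.

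Of the 22 coagulation factors, 8 rose with the index at an unadjusted p of 0.05 and 2 fell. The shares of all genes were 6.52% and 9.98%. Besides fibrinogen and Cpb2 the rising factors were Pros1 (slope 0.08), Kng1 (0.07), Vtn (0.06) and F9 (0.06), each with an adjusted p between 0.1702 and 0.271 from limma. The genes of thrombin generation other than F9 showed slopes near 0: F2 0.0027, F10 -0.0076, F7 0.02, F5 -0.02, F8 -0.03 and F11 0.03, none past the unadjusted threshold. Over the range of the index, the 95% interval of the fold was 0.903 to 1.12 for F2.

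The 3 factors that fell with the index at an unadjusted p of 0.05 were Klkb1, C8g and Proc. Proc, whose product protein C is a brake on coagulation, was highest in Con 5 (337.5 FPKM), Exe 4 (323 FPKM), Exe 2 (320.2 FPKM) and Con 4 (300.5 FPKM), the 4 mice with the lowest index. It was lowest in Con 2 (259 FPKM), Con 1 (265 FPKM) and Exe 5 (266.7 FPKM), with a slope of -0.08 (standard error 0.019, adjusted p = 0.0852 from limma). Klkb1 had the same slope of -0.08 (adjusted p = 0.129 from limma), with 51.4 FPKM in Con 1 and 53.7 FPKM in Exe 5 at the top of the index and 63.97 to 69.6 FPKM in the 4 mice at its bottom. Con 3, whose index was 9.12, was highest of all at 69.7 FPKM, against the direction of the slope. C8g, the γ subunit of C8, had a slope of -0.08 (adjusted p = 0.134 from limma), whereas that of C8a was 0.10 (adjusted p = 0.0895) and that of C8b 0.04. Under quantile normalization 18 factors passed an unadjusted p of 0.05, without C3, Fga and Vtn, and the 3 falling ones were again Klkb1, C8g and Proc. The share of all genes passing in that fit is not given here.

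**Figure D3:**
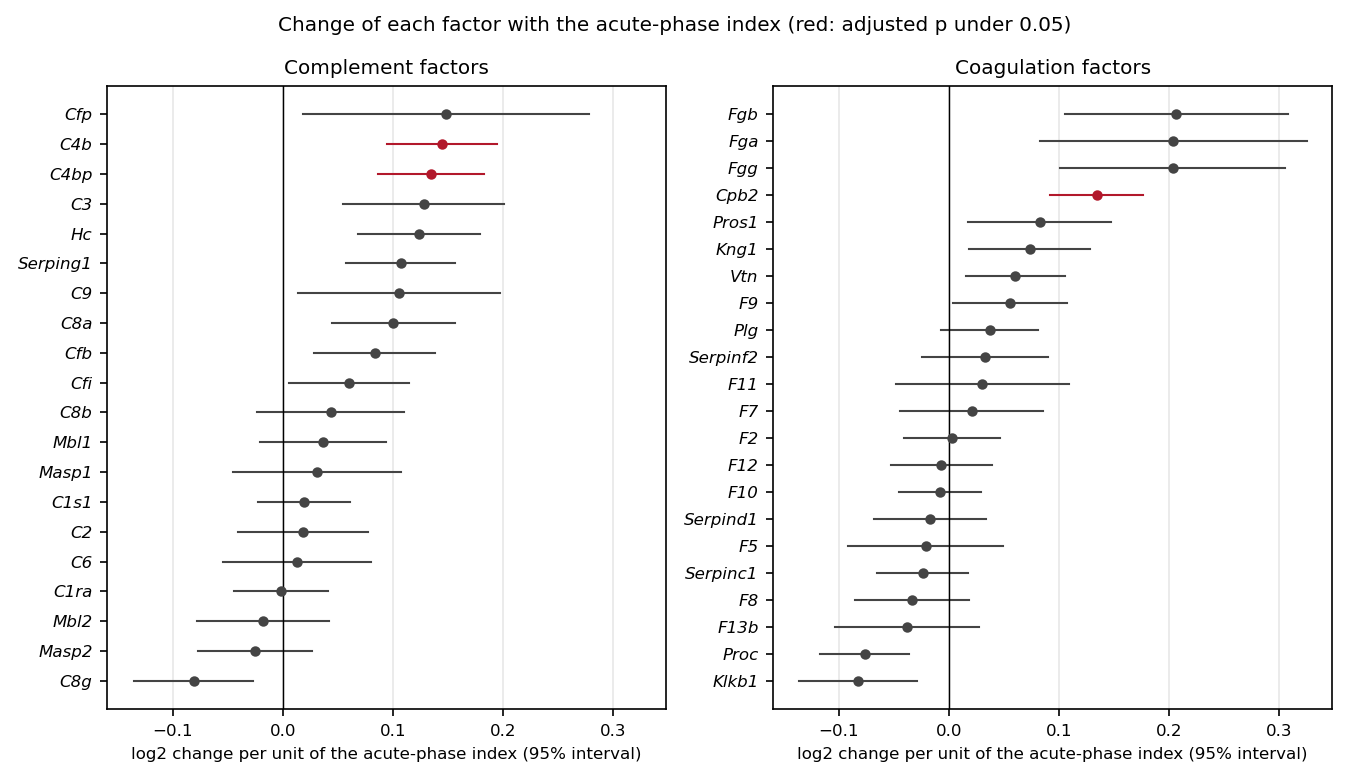
Slope of each of the 42 factors on the acute-phase index, in log2 units per unit of the index with the group as a term. Points are estimates and lines are 95% intervals from limma. Red marks Cpb2, C4b and C4bp, at an adjusted p under 0.05, while the fibrinogen chains have the steepest slopes and wider intervals, and C8g, Proc and Klkb1 lie below 0.

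The slopes were also fitted for each group apart. Cpb2 had slopes of 0.13 in Con and 0.14 in Exe mice, C4bp of 0.13 and 0.14, C4b of 0.16 and 0.12, and Proc of -0.08 and -0.07. For Fgb they were 0.16 and 0.27. No factor showed a difference between the groups' slopes at an unadjusted p of 0.05, where 3.76% of all genes did, and the adjusted p from limma was 0.9999 for each of the 42. With the index as a covariate beside the group, 2 factors passed an unadjusted p of 0.05 between Exe and Con mice, where 5.94% of all genes did, and 0 an adjusted one. These were Cfb, whose log2 fold change was then 0.15 (adjusted p = 0.826 from limma), and Cpb2 with 0.11 (adjusted p = 0.835).

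**Figure D4:**
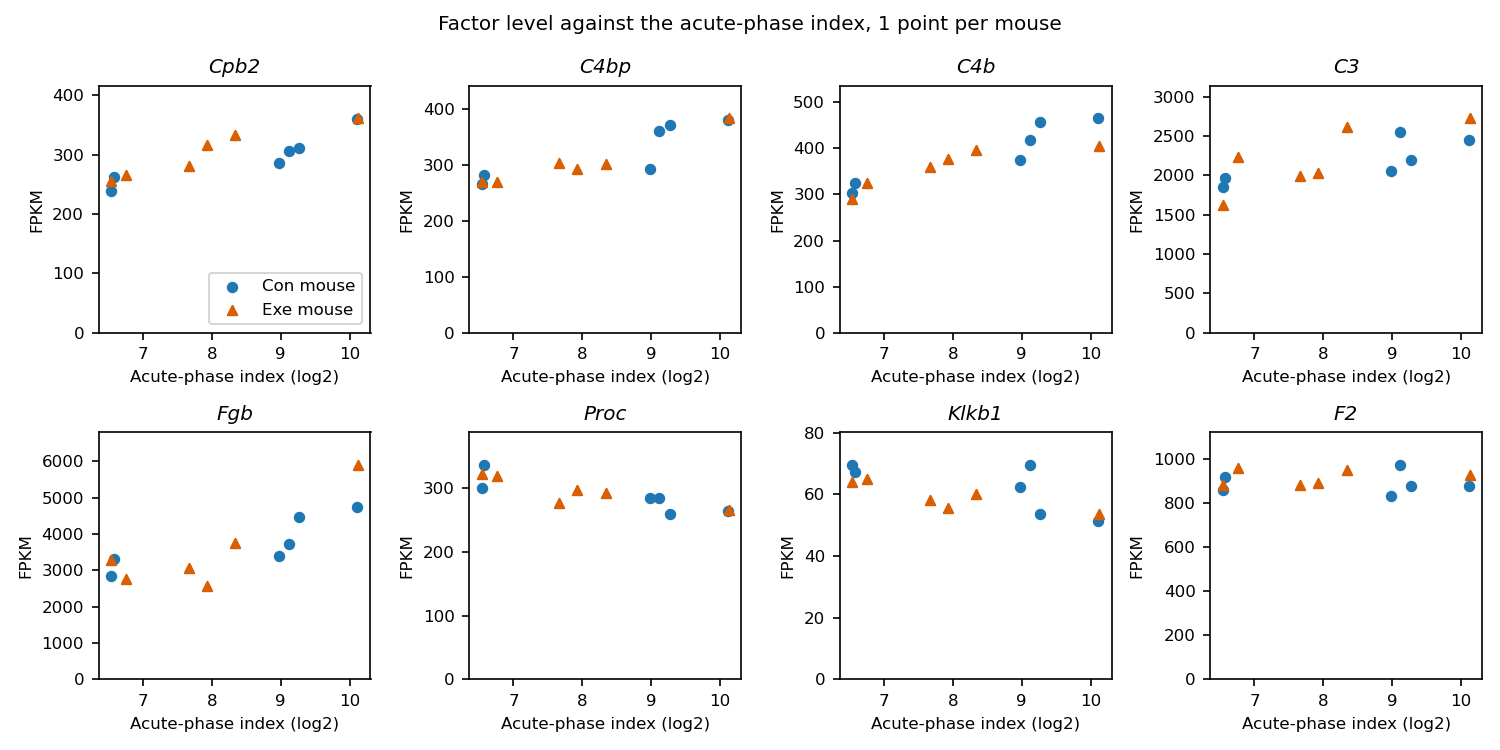
FPKM of 8 factors (axes starting at 0) against the acute-phase index, with 1 circle for each Con mouse and 1 triangle for each Exe mouse. Cpb2, C4bp and C4b rise along the index in both groups, Proc falls from 337.5 FPKM in Con 5 to 259 FPKM in Con 2, and F2 stays between 829 and 974 FPKM.

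The fibrinogen chains kept a narrower ratio than their levels, whereas C8g and C8a did not. Fgb was 1.48 to 1.79 times Fga and 1.20 to 1.39 times Fgg in the 12 mice, although the highest level of Fgb was 2.30 times its lowest. The ratio of Fgb to Fgg was 1.28 to 1.39 in Con mice and 1.20 to 1.31 in Exe mice. For C8 the ratio of C8b to C8a ran from 0.789 to 1.04, while that of C8g to C8a ran from 0.884 (Con 3) to 1.74 (Exe 2), wider than the spread of C8g (1.42 times) or C8a (1.45 times). Mbl1 to Mbl2 lay between 0.731 and 0.988 in Con mice and between 0.708 and 0.830 in Exe mice. The ratio of F2 to Serpinc1, a procoagulant protease to its main inhibitor, was 0.606 ± 0.0369 in Con mice and 0.613 ± 0.0255 in Exe mice (SD, n = 6). These ratios were picked after their values were seen and were not tested.

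Across the 42 factors the highest mouse exceeded the lowest by a median of 1.43 times. Over the 10231 tested genes that were above 0 FPKM in every mouse, the median was 1.48 times. The widest spread was that of Fga (2.70 times), Cfp (2.55 times), Fgb (2.30 times) and Fgg (2.20 times), followed by C9 (2.12 times). C1ra (1.16 times), Serpinc1 (1.16 times), F10 (1.17 times) and F2 (1.17 times) varied least. The 21 complement genes summed to 6018 FPKM in Exe 4 and 7972 FPKM in Exe 5, or 0.777% and 1.04% of all FPKM in these mice. The coagulation sum ran from 14662 FPKM (Exe 6) to 23765 FPKM (Exe 5), or from 1.85% to 3.10%.

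F8, Cfp and Cfd are known to come mainly from cells other than hepatocytes. In bulk tissue, fewer cells of a type and less RNA per cell cannot be told apart. F8, made by sinusoidal endothelial cells, ranged from 1.0 to 1.51 FPKM (median 1.10) in Con mice and from 1.18 to 1.40 FPKM (median 1.245) in Exe mice. Its log2 fold change was 0.07 (standard error 0.064, adjusted p = 0.931 from limma), on a scale that understates the change of so low a gene. The 8 endothelial markers, all with a mean of at least 1 FPKM, summed to 74.7 to 123.6 FPKM in Con mice and 86.9 to 107.4 FPKM in Exe mice. Con 5 was highest in both F8 and the endothelial sum, but F8 was lowest in Con 4 and the sum in Con 1. The part of these cells in F8 was not tested.

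Cfp, made by macrophages and neutrophils, was highest in Con 2 (31.5 FPKM) and lowest in Exe 2 (12.3 FPKM). The same mice were highest and lowest in the summed 8 Kupffer cell markers, at 292.9 and 110.1 FPKM, with Clec4f at 70.7 and 26.0 FPKM. The Kupffer sum ranged from 158 to 292.9 FPKM with a median of 211 FPKM in Con mice, and from 110.1 to 271 FPKM with a median of 159 FPKM in Exe mice. The 8 neutrophil markers, of which 2 had a mean of at least 1 FPKM, summed to 11.6 to 32.95 FPKM in Con mice and 8.86 to 52.35 FPKM in Exe mice. Their part in the values of Cfp was not tested. Cfd, which fat cells secrete, ranged from 0.09 to 0.35 FPKM in the Con group and from 0.12 to 0.34 FPKM in the Exe group. The adipocyte markers Adipoq and Plin1 were at or below 0.06 FPKM in all mice. The sum of the 6 adipose markers found, 931 to 2226 FPKM in Con mice and 1017 to 1852 FPKM in Exe mice, consisted almost wholly of Car3, which hepatocytes express as well.

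The wider pathway was followed through 29 further complement genes and 35 further coagulation genes, listed by pathway membership and not by their values. Of the complement genes 26 were found and 16 tested, of which 2 passed an unadjusted p of 0.05 between the groups, where 6.21% of all genes did. Clu, whose product clusterin binds the terminal complex, had 1372 ± 158 FPKM in Con and 1197 ± 111 FPKM in Exe mice, and C1rl had 53.0 ± 1.43 FPKM and 58.3 ± 4.68 FPKM (SD, n = 6). Their log2 fold changes were -0.19 (adjusted p = 0.799 from limma) and 0.13 (adjusted p = 0.793). On the index, 7 rose and 1 fell at an unadjusted p of 0.05, where 6.52% of all genes rose and 9.98% fell. Clu had a slope of 0.10 (adjusted p = 0.0436 from limma). The macrophage genes C1qa, C1qb and C1qc had slopes of 0.15, 0.20 and 0.18, with adjusted p of 0.2196, 0.129 and 0.123 from limma.

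Of the further coagulation genes 24 were tested and 1 passed an unadjusted p of 0.05 between the groups, a share not above the 6.21% of all genes. This was Mcfd2, part of the receptor that carries factors V and VIII out of the endoplasmic reticulum, with 101.3 ± 5.18 FPKM in Con and 111.7 ± 8.03 FPKM in Exe mice (SD, log2 fold change 0.14, adjusted p = 0.793 from limma). Its partner Lman1 had a log2 fold change of 0.15 at an unadjusted p of 0.0695. On the index, 3 of the 24 rose and 4 fell at an unadjusted p of 0.05, beside 6.52% and 9.98% of all genes, and 0 passed an adjusted p of 0.05 from limma, beside 0.498%. The steepest was Serpina10, the inhibitor of factors Xa and XIa that works with protein Z, with a slope of 0.24 (adjusted p = 0.0654 from limma). Vkorc1, the vitamin K epoxide reductase, had a slope of -0.09 (adjusted p = 0.0895 from limma). Lman1, Serpina10, Vkorc1 and the C1q genes were picked for mention once their values had been seen.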

How the data were processed

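Liver RNA was sequenced on the DNBseq platform, with 1 library per mouse. The values deposited by the authors are FPKM per gene, made after quality filtering of reads and HISAT alignment to GRCm39. The submitters' processing notes also name Bowtie2 and mm10, with no role. Which tool computed the FPKM, and whether mice were scaled to each other, is not given in the sources used here. The authors tested counts with DESeq; FPKM are no counts, so limma was used here. Depth in reads is unknown, and the errors given are the spread between 6 mice per group.

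Genes reaching 1 FPKM in 6 or more of the 12 mice were fitted on log2(FPKM + 1) with limma 3.58.1 in R 4.3.3 (lmFit, eBayes with trend), with Benjamini-Hochberg adjustment over all genes. The pseudocount of 1 understates changes of low genes. Terms were the group, or the group and the acute-phase index, whose own 10 genes were left out of the adjustment. Single values were compared with exact permutation tests in Python 3.11.15 with scipy 1.17.1. Both fits were tested on simulated data with known changes. The members and lists were chosen with earlier results of these data known. Genes described in full were those at an unadjusted p of 0.05 between groups, the 5 largest fold changes, the 3 most abundant of each set, the fibrinogen chains, the 10 steepest slopes, and F8, Cfd and Cfp. Klkb1, C8g and Proc fell outside this rule and were picked for their falling slopes. The alternatives were other scaling, filters, pseudocount, variance moderation, index definitions, a replicate block and each mouse left out. The index as a covariate and a slope for each group were added after seeing the data. RefSeq promoter sequences are of GRCm38.p6. Proteomics and metabolomics were not analysed here. The result of 1 further pathway gene is not reported here.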

Additional observations from a re-analysis of the deposited data

Results flagged for a closer look

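In each group of 6 mice, the gap of the highest or lowest mouse to its neighbour was divided by the range of the group and compared with Dixon's 95% critical value. This was done for 88 sets of 6 mice, those of the 43 factors and the index in both groups, and 7 exceeded it, where about 1 in 20 does so by chance.

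Exe 5 stood apart in 3 genes. Its Fgb was 5912 FPKM against 2575 to 3755 FPKM in the other Exe mice (ratio 0.646), its C4bp 384 FPKM against 269 to 303 FPKM (0.707), and its C8g 305 FPKM against 363 to 396 FPKM (0.634). Exe 5 also had the highest acute-phase index of the Exe mice. Mbl2 in Exe 4 was 259 FPKM against 304 to 315 FPKM (0.793). In Con mice, C1s1 was 190.7 FPKM in Con 4 against 217 to 229.5 FPKM (0.668), Masp1 was 39.3 FPKM in Con 3 against 27.9 to 32.1 FPKM (0.6302), and F8 was 1.51 FPKM in Con 5 against 1.0 to 1.19 FPKM (0.627). No cause of these values was tested.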

How the results depend on the processing

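In the comparison of Exe with Con mice, 0 of the factors passed an adjusted p of 0.05 from limma in every alternative run. At an unadjusted p of 0.05 the count of 0 became 1 under quantile normalization (C1s1), 2 with the index as a covariate, and 0 to 2 with 1 mouse left out. On the acute-phase index, the 3 factors at an adjusted p of 0.05 became 6 with an index without the Saa genes, 5 with a mean FPKM of at least 5, 6 with no group term, 5 under quantile normalization, 2 with the replicate block, 0 without the 2 mice farthest from the median of the index (Con 1 and Exe 5), and 0 to 4 with 1 mouse left out. The 21 factors at an unadjusted p of 0.05 became 12 with the replicate block, 9 without Con 1 and Exe 5, and 17 to 21 with 1 mouse left out. Apart from the fit with the index as a covariate, the share of all genes passing in each alternative is not given here. Whether these shifts are particular to the factors can therefore not be told, and their causes were not tested. The difference of the index between the groups stayed below 0, from -0.99 without Exe 5 to -0.20 without Con 1. With 1 mouse left out, the log2 fold change of C3 ran from -0.062 without Exe 5 to 0.087 without Exe 4, and that of Fgg from -0.19 without Exe 5 to 0.036 without Exe 6. Under quantile normalization Fgb turned to 0.033 and Fgg to 0.16, and with the index as a covariate to 0.0013 and 0.072.

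Con and Exe mice share replicate numbers, but the deviations of same-numbered mice from their group means correlated between -0.478 and 0.165, so no pairing by number was seen in the values. Whether mice were paired in housing or handling is not given in the sources used here. In 2 of 12 mice the best match was the mouse of the same number. With the block, Fgb and Fgg passed an adjusted p of 0.05 on the index, while C4b (adjusted p = 0.1199 from limma), C4bp (0.0789) and Cpb2 (0.1246) did not. Precision is limited by 6 mice per group and by FPKM without counts.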
